A study of Mus musculus with 27 samples.

Results

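The medium-chain acyl-CoA synthetases of the Acsm family were read across graded renal ischemia through 4 genes, Acsm1, Acsm2, Acsm3 and Acsm5, which were found by symbol among the 19392 genes of the table. All 4 were detected in every kidney. They were chosen because earlier results of the same data had shown them to be lower after ischemia, so their levels and differences are given as a description and without p-values.

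Acsm enzymes sit in the mitochondrial matrix and use ATP to join a carboxylic acid to coenzyme A. Their substrates are medium-chain and short branched fatty acids and also xenobiotic acids such as benzoate, whose CoA esters are then passed to glycine by N-acyltransferases. In the kidney this chemistry is known from the proximal tubule, which burns fatty acids and secretes glycine conjugates such as hippurate.

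RNA was taken from the left kidneys of 27 C57BL/6 mice, 3 mice at each of 9 clamping times of the left renal pedicle. The times were 0 min (the sham group), 16, 18, 20, 22, 24, 26, 28 and 30 min, and kidneys were collected after 24 h of reperfusion. The study describes removal of the right kidney and a platform heated to 37 °C for the model with all these times, 0 min included. Whether the sham mice lost the right kidney is not stated separately. If they kept it, its removal and the clamping cannot be told apart in comparisons with 0 min. The labels give no genotype, transgene or further agent, and no age or sex, but the Y-linked genes Ddx3y, Uty, Eif2s3y and Kdm5d were above 0 in every kidney. Values are FPKM, in which the fragments of a gene are divided by its length and by all fragments mapped in that kidney, a unit that allows levels of genes of unequal length to be compared.

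The relative depth of the kidneys, read from 15 genes whose low values moved in single-fragment steps, lay between 0.927 and 1.065 of the median, and the number of fragments itself is unknown. The injury markers Havcr1 (KIM-1) and Lcn2 (NGAL) set 2 kidneys apart. In the 16 min kidney of replicate 3 they read 35.08 and 31.43 FPKM, against 331.86 and 387.9 in replicate 1 and 574.47 and 410.34 in replicate 2. The sham kidney of replicate 3 read 22.02 FPKM for Havcr1 and 63.62 for Lcn2, above the other sham kidneys, which were at 2.49 and 2.81 FPKM for Havcr1 and at 9.39 and 11.49 for Lcn2. The differences of the Acsm genes at 16 min are therefore also given without the first of these, and those over 16 to 26 min without each. Of the 13 other genes of the lists below that were called over 16 to 26 min, 13 stayed called without either kidney.

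The 4 genes lie in a row on chromosome 7 of the mouse genome (GRCm38.p6), all on the plus strand and within 258766 bases. From the start of the row, Acsm5 spans chr7:119526131-119543360, Acsm2 chr7:119554340-119600694, Acsm1 chr7:119617757-119662515 and Acsm3 chr7:119760883-119784896. Acsm4, at chr7:119690026-119714566 between Acsm1 and Acsm3, was listed at 0 FPKM in 25 of the 27 kidneys and at no more than 0.03 in the others. No stretch of 50 bases in the transcripts of the 4 genes (GENCODE M21) occurs in a transcript of another gene, and their coding sequences share 64.58% to 67.74% of aligned bases, so the rows can be told apart by reads of that length. Acsm3 overlaps Eri2 by 1071 bases and Acsm5 overlaps Pdilt by 2906 bases, both on the minus strand, and whether fragments were counted by strand is not given in the sources used here. In the sham kidneys Eri2 was at 4.52 FPKM and Pdilt at 2.063 FPKM, far below the Acsm gene each overlaps. The gap was narrower at 30 min, with Eri2 at 2.713 against 12.66 for Acsm3, and Pdilt at 2.673 against 7.123 for Acsm5. The part of shared fragments in these levels was not tested.

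The DNA just before the first annotated base of each gene is shown because the 4 neighbours had unequal levels after ischemia, and these letters let their upstream regions be compared. The sequences are those of RefSeq for GRCm38.p6, plus strand, 5′ to 3′, with motif matches in capitals.

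Acsm5 upstream, chr7:119526015-119526130: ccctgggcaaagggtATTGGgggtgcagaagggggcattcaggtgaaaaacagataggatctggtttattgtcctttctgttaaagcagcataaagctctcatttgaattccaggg
Acsm2 upstream, chr7:119554220-119554339: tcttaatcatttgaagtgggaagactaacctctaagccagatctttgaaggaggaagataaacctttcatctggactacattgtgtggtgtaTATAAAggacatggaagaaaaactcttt
Acsm1 upstream, chr7:119617637-119617756: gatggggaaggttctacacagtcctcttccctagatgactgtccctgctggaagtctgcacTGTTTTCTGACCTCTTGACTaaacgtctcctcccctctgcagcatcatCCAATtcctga
Acsm3 upstream, chr7:119760763-119760882: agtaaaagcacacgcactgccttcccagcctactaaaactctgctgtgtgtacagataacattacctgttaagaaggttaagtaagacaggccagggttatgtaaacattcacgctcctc

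The motifs described here were searched on both strands of the 250 bases before each start. Shares are given over the 32851 windows of that length. The first Acsm2 start has a TATAAA box 28 to 23 bases before it, found in 12.37% of windows. In Acsm1 the capitals cover 2 overlapping matches, each with the 3 mismatches allowed, to the nuclear receptor repeat AGGTCANAGGTCA (21.29% of windows). The single arm AGGTCA, read as TGACCT on the shown strand, lies within both (14.02%), and a CCAAT box stands apart from them. Acsm5 holds a CCAAT box, written ATTGG on the shown strand, and Acsm3 has 2 of them after its first annotated base, 37 to 33 and 25 to 21 bases before the start that RefSeq uses (33.85% of windows).

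Acsm2, an enzyme long known from kidney mitochondria and active on benzoate and medium-chain fatty acids, was the most abundant of the 4. It read 622.05, 580.12 and 523.18 FPKM in the sham kidneys, which placed it at rank 97 of 19392 genes by mean. The 16 min kidneys read 301.59, 295.46 and 483.21, the 18 min kidneys 320.12, 357.84 and 370.58, and the 20 min kidneys 307.13, 310.24 and 394.14. The values were 308.18, 287.63 and 236.73 after 22 min, 267.2, 289.72 and 289.94 after 24 min, and 213.82, 296.33 and 232.5 after 26 min, so that the replicate 3 kidney of 16 min stayed the highest of all ischemic kidneys. The 28 min kidneys read 147.28, 138.46 and 176.43 and the 30 min kidneys 140.28, 115.37 and 150.09. All 24 ischemic kidneys lay below the lowest sham kidney. In whole kidney RNA, fewer proximal tubule cells cannot be told apart from less RNA per cell. The groups from 16 to 26 min overlapped their neighbours, the 28 min kidneys lay below all 26 min kidneys, and those of 28 and 30 min overlapped.

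The mean of Acsm2 in the 0, 16, 26, 28 and 30 min groups was 575.1 ± 49.62, 360.1 ± 106.7, 247.5 ± 43.26, 154.1 ± 19.87 and 135.2 ± 17.9 FPKM, respectively (SD, n = 3 each). The 30 min mean was 23.52% of the sham mean. Differences below are those of limma on quantile-normalized log2(FPKM + 1), so a difference of -1 is close to a halving, and a gene is called when its difference exceeds 1 in size and its adjusted p is under 0.05. For Acsm2 the differences from sham at 16, 26 and 30 min were -0.81, -1.36 and -2.14, each with a standard error of 0.20. Over the 18 kidneys of 16 to 26 min together it was -1.08 (standard error 0.15), past the size of 1, but it was -0.92 both without quantile normalization and with FPKM rescaled to a constant sum, where the gene was no longer called. Without the 16 min kidney of replicate 3 the difference at 16 min was -1.12, past the size of 1, and that of 16 to 26 min was -1.14, the same value as without the sham kidney of replicate 3.

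Acsm3, first known as the SA gene of hypertensive rats and active on short and medium-chain acids, had the widest range as a fold. The sham kidneys read 289.94, 224.13 and 214.31 FPKM. After 16 min the values were 301.76, 129 and 289.87, after 18 min 134.95, 215.13 and 253.75, and after 20 min 198.9, 167 and 269.06. Both the highest and the lowest of these 9 values came from 16 min kidneys. They were 170.25, 162.42 and 144.31 after 22 min, 141.13, 184.87 and 176.88 after 24 min, and 70.29, 94.48 and 173.84 after 26 min. The 28 min kidneys read 21.1, 12.95 and 20.38, and the 30 min kidneys 14.77, 7.4 and 15.8. Kidneys of 16, 18 and 20 min overlapped the sham kidneys, those of 22 to 30 min did not, and the lowest 26 min kidney stood well above the highest 28 min kidney.

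In the sham group Acsm3 averaged 242.8 ± 41.12 FPKM (SD, n = 3) and at 16 min 240.2 ± 96.49, where the 3 kidneys spread over 2.339-fold. The 26, 28 and 30 min groups averaged 112.9 ± 54.17, 18.14 ± 4.512 and 12.66 ± 4.581 FPKM, and the last of these was 19.18-fold lower than sham. The difference of 28 from 26 min was -2.56 (standard error 0.35), the 4th lowest of the 18188 genes tested, and with each kidney of these groups left out in turn it lay between -2.87 and -2.19, the last without the 26 min kidney of replicate 3, which had the highest level of its group. Against sham it was -0.06 at 16 min, where leaving out 1 kidney moved it between -0.27 and 0.34, the last without replicate 2 of 16 min, so that no direction can be read. It was -1.15 at 26 min and reached -4.19 (standard error 0.35) at 30 min.

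Acsm1, which activates butyrate and other short to medium-chain acids, kept the largest share of its sham level at 30 min. Its sham values were 76.27, 74.23 and 67.4 FPKM. The 16 min kidneys read 40.99, 59.3 and 49.97, the 18 min kidneys 53.31, 59.69 and 63.57, and the 20 min kidneys 67.62, 72.95 and 51.53. The values were 59.05, 74.32 and 62.78 after 22 min, 50.96, 81.15 and 69.37 after 24 min, and 62.77, 67.15 and 50.94 after 26 min, with a 24 min kidney the highest of all 27. The 28 min kidneys read 45.02, 41.41 and 38.75, and the 30 min kidneys 29.86, 29.27 and 18.08. Kidneys of 20, 22 and 24 min overlapped the sham kidneys, and the groups of 26, 28 and 30 min followed each other without overlap. The mean in the 0, 16, 24, 28 and 30 min groups was 72.63 ± 4.646, 50.09 ± 9.156, 67.16 ± 15.22, 41.73 ± 3.147 and 25.74 ± 6.637 FPKM (SD, n = 3 each), and 35.43% of the sham mean remained at 30 min. Its differences from sham at 16, 24, 28 and 30 min were -0.60, -0.23, -0.87 and -1.55, each with a standard error of 0.19.

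Acsm5, another mitochondrial enzyme of the family, was the least abundant of the 4. It read 47.12, 44.68 and 37.67 FPKM in the sham kidneys. After 16 min the values were 23.1, 21.18 and 29.17, after 18 min 23.92, 28.94 and 27.93, and after 20 min 28.17, 27.29 and 28.51. They were 25.99, 28.4 and 23.66 after 22 min, 23.68, 32.31 and 32.81 after 24 min, and 24.52, 25.66 and 20.83 after 26 min, all between 20.83 and 32.81. The 28 min kidneys read 12.24, 10.9 and 9.69, and the 30 min kidneys 7.79, 7.42 and 6.16. As with Acsm2, no ischemic kidney reached the lowest sham kidney, and the levels formed 3 steps without overlap between 26, 28 and 30 min. The means of the 0, 16, 26, 28 and 30 min groups were 43.16 ± 4.906, 24.48 ± 4.171, 23.67 ± 2.525, 10.94 ± 1.276 and 7.123 ± 0.8545 FPKM (SD, n = 3 each), the last being 16.51% of sham. Against sham its difference was -0.87 (standard error 0.14) at 16 min, or -1.01 without replicate 3 of 16 min, and -2.52 at 30 min. Between 16 and 26 min the difference was -0.05, and between 26 and 28 min -1.06.

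**Figure D1:**
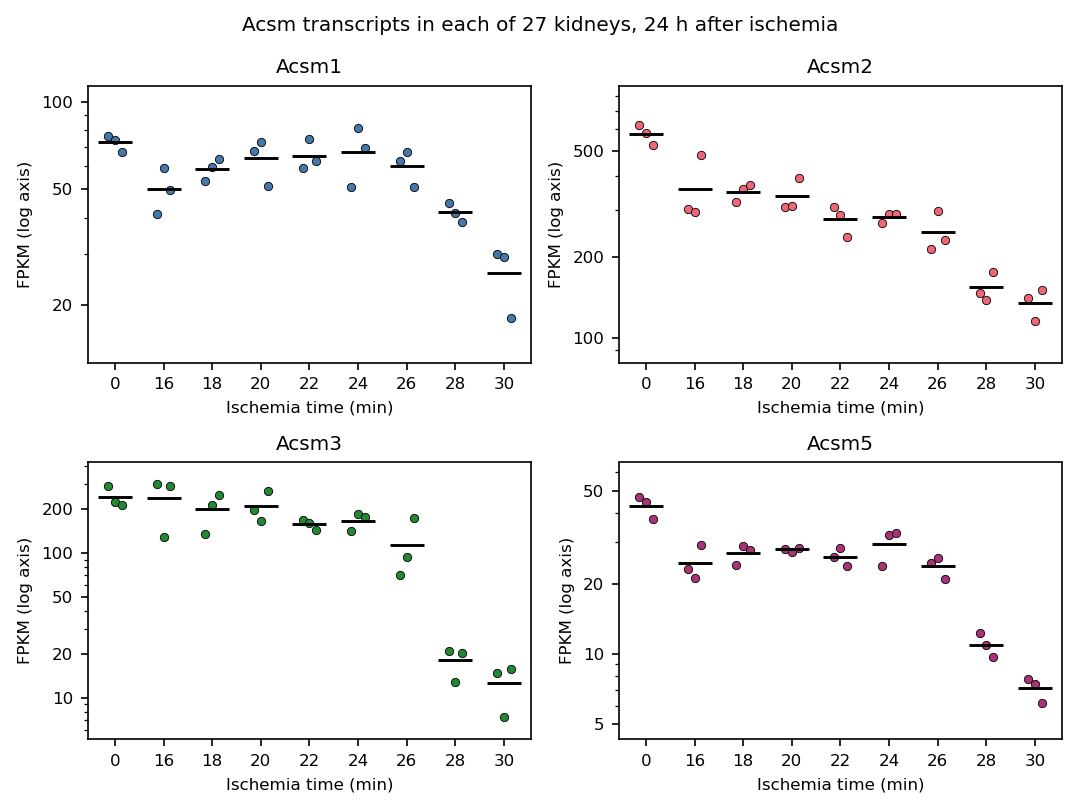
FPKM of Acsm1, Acsm2, Acsm3 and Acsm5 (log axis) against ischemia time in min, with 1 point per kidney and a bar at the mean of the 3 kidneys. Acsm2 and Acsm5 are below the sham kidneys at every time, Acsm3 drops from 112.9 to 18.14 FPKM between 26 and 28 min, and Acsm1 keeps 35.43% of its sham mean at 30 min.

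The 4 profiles thus differed in where their losses fell. From 0 to the 18 kidneys of 16 to 26 min, Acsm2 went to 53.73% of its sham mean and Acsm5 to 61.28%, with all 18 kidneys below the lowest sham kidney. Acsm3 stood at 75% and Acsm1 at 83.94%, each with 13 of 18 kidneys below the lowest sham kidney. From there to the 6 kidneys of 28 and 30 min, Acsm3 was 11.83-fold lower, Acsm5 2.928-fold, Acsm2 2.136-fold and Acsm1 1.807-fold. Without the 16 min kidney of replicate 3, the differences of Acsm1 and Acsm3 from sham were -0.62 and -0.27 at 16 min. Over 16 to 26 min those of Acsm1, Acsm3 and Acsm5 were -0.34, -0.49 and -0.76 with all kidneys, -0.35, -0.52 and -0.79 without that kidney, and -0.40, -0.58 and -0.86 without the sham kidney of replicate 3. These are descriptions of genes chosen on these kidneys, and the difference between members was not tested.

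The comparisons with 0 min all share the same 3 sham kidneys. None of the 4 members was called by limma at 16, 18 or 20 min, where 0.979%, 1.09% and 0.962% of all tested genes were called lower. Acsm2 was the 1 member called at 22 and at 24 min (1.20% and 1.15% of all genes), Acsm2 and Acsm3 were called at 26 min (1.61%), all but Acsm1 at 28 min (4.21%) and all 4 at 30 min (5.59%). Without the 16 min kidney of replicate 3, 2 members were called at 16 min, Acsm2 and Acsm5, and the number of all genes called was 622 in place of 410. Over 16 to 26 min together 1 of 4 was called, Acsm2 (1.17% of all genes).

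The number of members lower than sham without overlap was 3 of 4 at 16 and 18 min (7.54% and 13.1% of all genes were lower without overlap), 2 at 20 min (11.6%), 3 at 22 and 24 min (14.4% and 12.8%) and 4 at 26, 28 and 30 min (12.8%, 21.4% and 21.2%). Over 16 to 26 min together Acsm2 and Acsm5 did not overlap the sham kidneys (4.33% of all genes). Since these contrasts chose the members, nothing is read from the shares.

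For 26 against 16 min 0 of 4 were called, as were 0.00% of the 18188 genes by limma, although 1717 of these had an unadjusted p under 0.05. Acsm3 and Acsm2 had differences of -1.09 and -0.56 there, and Acsm1 and Acsm5 of 0.26 and -0.05. For 28 against 26 min Acsm3 and Acsm5 were called (1.06% of all genes were called lower), Acsm1 and Acsm2 had differences of -0.54 and -0.63, and none of the 4 overlapped between the groups (16.4% of all genes were lower without overlap). The call of Acsm5 was lost without the 26 min kidney of replicate 2 or the 28 min kidney of replicate 3, where 1 member was called. For 30 against 28 min 0 of 4 were called (0.649% called lower), with differences of -0.68, -0.14, -0.47 and -0.54 for Acsm1, Acsm2, Acsm3 and Acsm5.

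**Figure D2:**
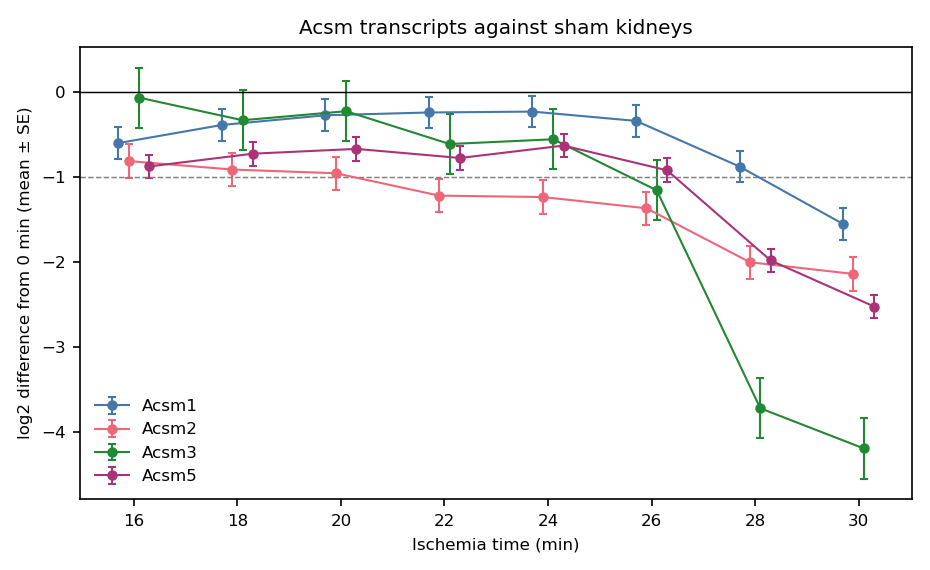
Difference from the sham kidneys (limma, log2 scale, ± standard error) of the 4 Acsm genes against ischemia time in min, with 1 line per gene, a solid line at 0 and a dashed line at -1. At 16 min Acsm1, Acsm2 and Acsm5 are at -0.60, -0.81 and -0.87, and Acsm3 is at -0.06. Acsm3 goes from -1.15 at 26 min to -3.72 at 28 min.

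Summed FPKM of the 4 genes in the 0, 16, 26, 28 and 30 min groups was 933.7 ± 96.84, 674.9 ± 173.8, 444.4 ± 63.26, 224.9 ± 20.78 and 180.8 ± 18.49 (SD, n = 3 each). The mixture changed as well. Acsm2 made up 61.67% ± 1.428 of the sum in sham kidneys, 51.85% ± 3.125 at 24 min and 74.7% ± 3.683 at 30 min. Acsm3 made up 25.91% ± 1.906 in sham and 34.92% ± 9.864 at 16 min, and 8.006% ± 1.52 and 6.872% ± 1.959 in the 28 and 30 min groups. The share of Acsm1 was 7.802% ± 0.378 in sham and 18.69% ± 2.512 at 28 min. For each FPKM of Acsm2 there was 0.4207 ± 0.04101 of Acsm3 in sham, 0.679 ± 0.2902 at 16 min and 0.09157 ± 0.02375 at 30 min. Acsm2 and Acsm3 were lowest in the same kidney at 8 of the 9 times and highest in the same kidney at 5. The other pairs shared the lowest kidney at 3 to 6 of the 9 times and the highest at 3 to 5.

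**Figure D3:**
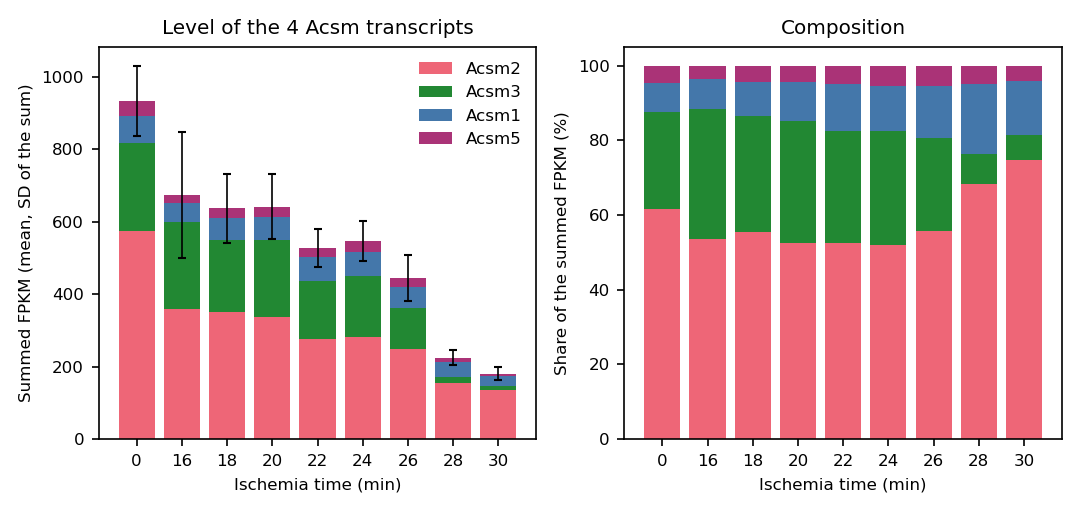
Left, stacked mean FPKM of the 4 Acsm genes at each ischemia time in min, with the SD of their sum over 3 kidneys. Right, mean share of each gene in that sum (%), where Acsm3 (green) goes from 24.94% at 26 min to 8.006% at 28 min and Acsm2 (red) reaches 74.7% at 30 min.

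The remaining acyl-CoA synthetases, which activate acetate, long-chain and very long-chain acids or acetoacetate, were listed by family membership and were tested. The list was drawn up with earlier results of these data known. Of 20 genes, 19 were tested, and Acsm4 was the one left out for its low values. At 30 min against sham 4 were called lower and 2 higher, and 13 did not pass (5.14% of all genes were called higher there), with a median difference over the 19 of -0.0020 against 0.0008 over all 18188 genes. Acss2, the cytosolic acetyl-CoA synthetase, fell from 110.1 ± 10.99 to 13.95 ± 0.908 FPKM (SD, n = 3), a difference of -2.90 (limma, adjusted p = 3.62e-11). Also called lower were Aacs, which activates acetoacetate (difference -2.44, adjusted p = 1.96e-08), Slc27a2, a very long-chain acyl-CoA synthetase (-1.95, adjusted p = 3.32e-11), and Acss3, a mitochondrial short-chain synthetase (-1.49, adjusted p = 3.99e-07). Acsl4, which prefers arachidonate, rose from 10.54 ± 0.6553 to 44.94 ± 3.714 FPKM (difference 1.94, adjusted p = 2.74e-10) and Acsbg1 from 0.07 ± 0.02 to 1.947 ± 0.6117 (difference 1.44, adjusted p = 1.11e-09).

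Between 26 and 28 min, 2 of the 19 were called, Aacs (difference -1.79, limma, adjusted p = 3.95e-05) and Acss2 (-1.25, adjusted p = 3.63e-05). At 16 to 26 min against sham 1 of 19 was called. This was Acsl1, the main long-chain synthetase of oxidative tissue, which fell by 1.13 (adjusted p = 1.94e-05) from 95.11 ± 4.674 FPKM in sham to 43.31 ± 1.399 at 26 min and read 61.91 ± 9.915 at 30 min, where its difference of -0.61 was below the size of a call. Slc27a2 remained the most abundant synthetase transcript, with 1645.6 ± 77.01 FPKM in sham kidneys and 453 ± 81.87 at 30 min, above the 4 Acsm genes together at both times. Values of the uncalled genes at 30 min were -0.27 for Acss1, -0.37 for Acsl3, 0.58 for Acsl5 and Acsf2, -0.56 for Acsf3, -0.84 for Slc27a1, 0.09 for Slc27a3 and 0.38 for Slc27a4. Acsl6, Acsbg2, Slc27a5 and Slc27a6 had sham means of no more than 0.03 FPKM.

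Of the N-acyltransferases downstream of Acsm enzymes in glycine conjugation, Keg1 and Gm4952 were called lower at 30 min and Glyat was not. Glyat, which makes hippurate from benzoyl-CoA, read 347.5 ± 12.77 FPKM (SD, n = 3) in sham, 320.8 ± 19.13 after 28 min and 247 ± 69.42 after 30 min. Its difference of -0.54 from sham after 30 min (limma, adjusted p = 0.00158) was below the size of a call. Keg1, a kidney transcript of the same family, read 1004.1 ± 93.25 in sham and 1418.1 ± 40.93 at 26 min, then fell to 711.9 ± 46.88 at 28 min (difference from 26 min -1.22, adjusted p = 0.00523) and to 156.9 ± 112.5 at 30 min (difference from sham -2.88, adjusted p = 5.76e-08). The 30 min kidneys spread widely, at 282.23, 123.69 and 64.68 FPKM. Gm4952 was low and fell by 1.24 (adjusted p = 6.42e-07), from 1.97 to 0.3667 FPKM, and Glyatl3 was near 0. Of the 4 genes 2 were thus called lower at 30 min (median difference -0.89), 1 at 28 against 26 min and 0 at 16 to 26 min, where 2 had an unadjusted p under 0.05 by limma.

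The acyl-CoA thioesterases, which split acyl-CoA esters, numbered 13. At 30 min 2 were called higher and 1 lower, with a median difference of -0.04, and without the 30 min kidney of replicate 1 the total was 6. Acot2, a mitochondrial enzyme, rose by 1.14 (limma, adjusted p = 2.61e-06) from 22.57 ± 0.7795 to 54.02 ± 15.78 FPKM, Acot5 rose by 1.43 (adjusted p = 3.06e-07) from 0.1733 to 2.377 FPKM, and Acot3, a peroxisomal enzyme, fell by 1.58 (adjusted p = 3.78e-05). Acot1, the cytosolic enzyme, fell by 1.34 at 16 to 26 min (adjusted p = 2.6e-06) and had a difference of -0.04 at 30 min, with 92.49 ± 6.991 FPKM in sham, 35.22 ± 6.065 at 26 min and 89.39 ± 21.45 at 30 min. Acot1 and Acot2 are near-identical in sequence, so their values are uncertain where fragments match both. At 28 against 26 min 0 of the 13 were called by limma, and 8 had an unadjusted p under 0.05.

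**Figure D4:**
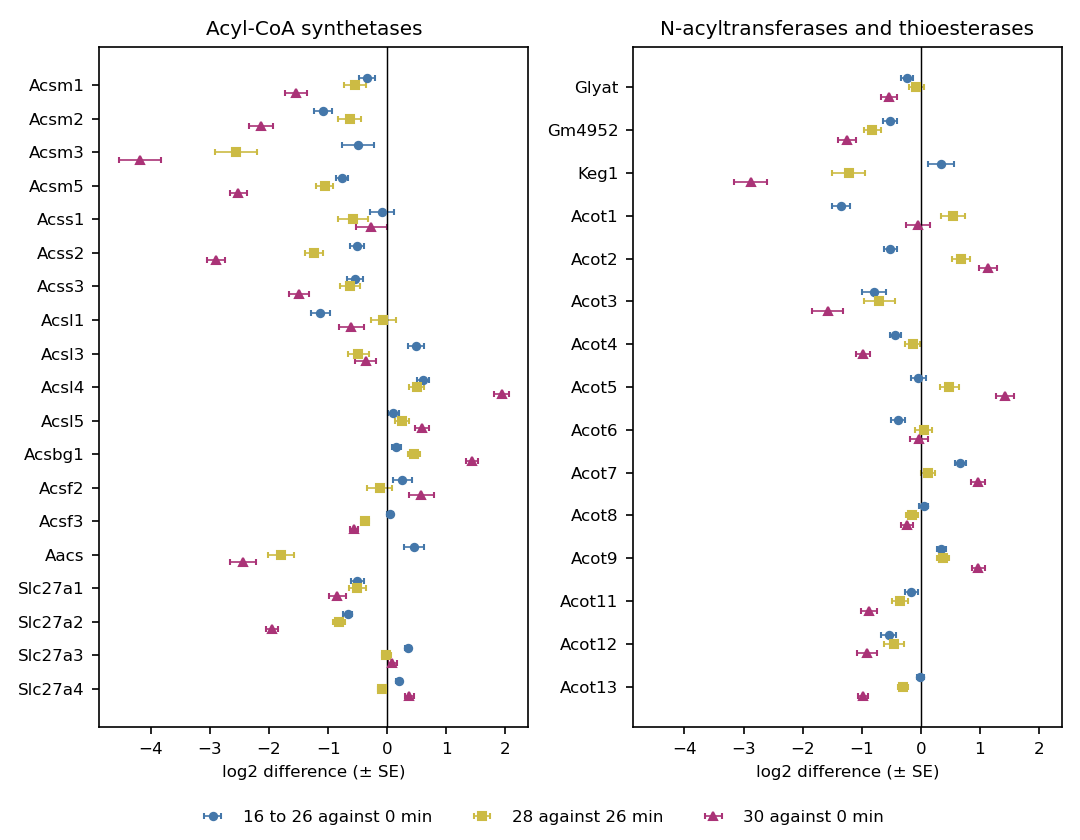
Differences (limma, log2 scale, ± standard error) of acyl-CoA synthetases (left), and of N-acyltransferases and thioesterases (right), that reached 1 FPKM in any kidney, for 16 to 26 against 0 min (blue circles), 28 against 26 min (yellow squares) and 30 against 0 min (purple triangles). The 4 Acsm genes, Acss2, Aacs, Slc27a2, Acss3, Keg1 and Acot3 lie far to the left at 30 min, and Acsl4 at 1.94 lies farthest to the right.

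Of 12 genes for making and carrying coenzyme A, the second substrate of the Acsm reaction, 2 were called lower at 30 min and 0 higher, with a median difference of -0.49. Pank1, a pantothenate kinase at the head of CoA synthesis, fell by 1.95 (limma, adjusted p = 2.55e-09) from 42.57 ± 7.764 to 10.72 ± 0.6751 FPKM, and Slc25a42, the mitochondrial CoA carrier, fell by 1.01 (adjusted p = 1.4e-05). Leaving out 1 kidney gave 1 call without replicate 1 or 2 of sham or replicate 1 or 3 of 30 min, and 4 without replicate 3 of sham or replicate 2 of 30 min. None of the 12 was called by limma at 28 against 26 min or at 16 to 26 min, where 8 and 5 had an unadjusted p under 0.05. The largest difference of the 12 at 28 against 26 min was again in Pank1, at -0.90.

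Mitochondrial beta-oxidation, the next pathway for a medium-chain acyl-CoA, was measured through 18 genes. At 30 min 2 were called lower, with a median difference of -0.49 over the 18, and 1 without the 30 min kidney of replicate 3. Acadm, the medium-chain acyl-CoA dehydrogenase, fell by 2.45 (limma, adjusted p = 2.34e-10) and Echs1, the short-chain enoyl-CoA hydratase, fell by 1.08 (adjusted p = 1.27e-08). Acadm was also the 1 gene of 18 called at 16 to 26 min (difference -1.25, adjusted p = 3.95e-07). All 18 had a difference below 0 there, with a median of -0.28 against -0.01 over all genes. The dehydrogenases for other chain lengths were not called at 30 min, with differences of -0.02 for Acadvl, 0.02 for Acadl and -0.49 for Acads. At 28 against 26 min 0 of 18 were called by limma and 11 had an unadjusted p under 0.05, and Acadm had a difference of -0.79.

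Acadm was also the gene whose profile lay closest to that of Acsm2, among 12345 other genes averaging at least 1 FPKM. Likeness was measured as the root mean square difference between the centred means of log2(FPKM + 1) at the 9 times, and it was 0.081. Acadm read 563.23, 551.49 and 540.54 FPKM in sham kidneys, and 320.89, 227.74 and 391.04 after 16 min. It read 209.89, 219.24 and 258.46 after 26 min, 124.15, 130.62 and 138.56 after 28 min, and 111.86, 117.15 and 95.58 after 30 min, and these 3 groups did not overlap. The next genes were Itih5, Acat1 (mitochondrial acetoacetyl-CoA thiolase), Ldhd (D-lactate dehydrogenase) and Fbp1 (fructose bisphosphatase), at 0.103 to 0.118. For Acsm5 the closest were Slc6a13 (a GABA and taurine transporter), Pxmp2 (a peroxisomal membrane channel), Cmbl, Bco2 and Upb1, at 0.074 to 0.095. For Acsm1 they were Fggy, Tmem143, Aqp11, Pgap6 and Cfb (complement factor B), at 0.092 to 0.116.

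Acsm3 had no such close neighbours by this measure, which is not scaled and so grows with the range of a profile. The centred means of Acsm3 ran from 1.2034 at 0 min to -3.0065 at 30 min, and those of Acsm1 from 0.4305 to -1.0627. Slc22a22, a prostaglandin transporter of the proximal tubule, came first at 0.217, followed by Methig1, Ceacam2, Serpina1b and Scd1 (stearoyl-CoA desaturase) at 0.235 to 0.376. Mean Slc22a22 in the 0, 26, 28 and 30 min groups was 45, 26.96, 3.907 and 1.34 FPKM. Among the members, Acsm2 and Acsm5 were nearest to each other (0.249) and Acsm1 and Acsm3 farthest apart (1.146). All these values share the same 27 libraries and their scaling and are descriptions.

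**Figure D5:**
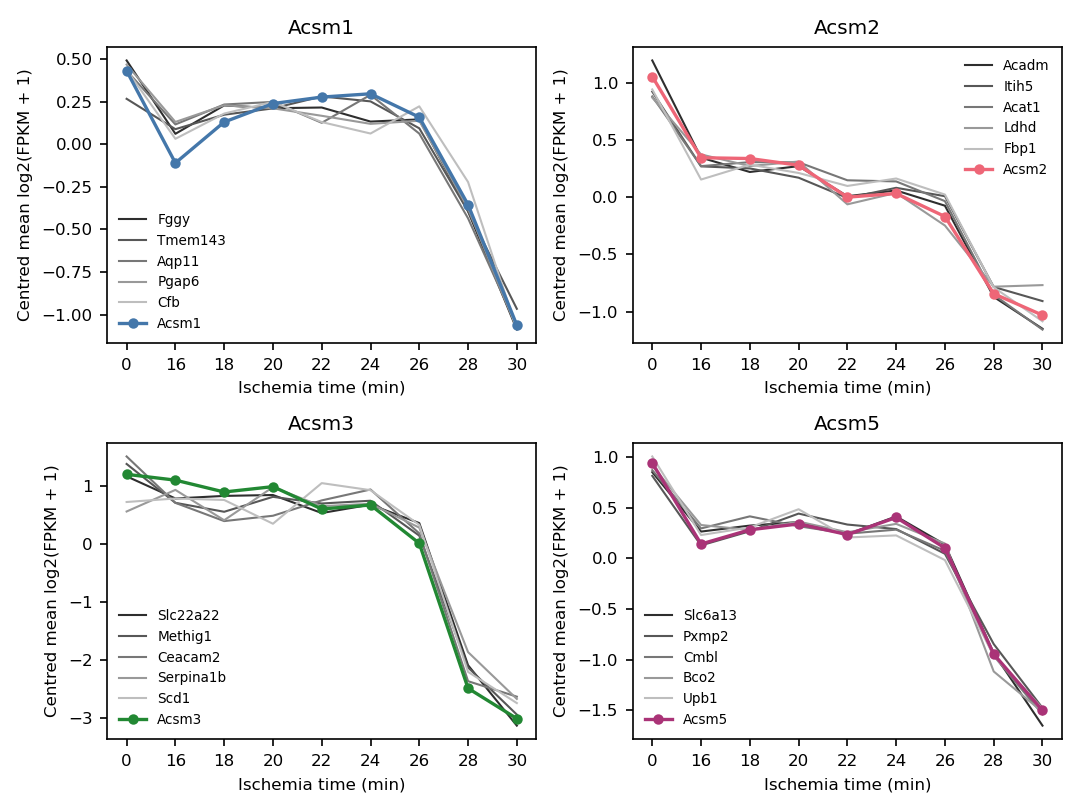
Centred mean log2(FPKM + 1) at the 9 ischemia times in min for each Acsm gene (coloured) and the 5 genes with the most similar profile (grey lines). Acsm2 and Acadm run within 0.081 of each other (root mean square), while the nearest gene to Acsm3, Slc22a22, is at 0.217.

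Among 11 transcription factors and coactivators known for fatty acid or proximal tubule genes, 1 was called lower at 30 min, with a median difference of -0.45 over the 11. This was Ppargc1a, a coactivator of mitochondrial genes (difference -1.08, limma, adjusted p = 1.22e-04). Hnf4a, a nuclear receptor of the proximal tubule, read 199 ± 15.47 FPKM (SD, n = 3) in sham and had differences of -0.61 at 30 min and 0.05 at 28 against 26 min, neither of them called. The other differences at 30 min were -0.14 for Ppara, -0.28 for Ppard, 0.02 for Pparg, -0.43 for Ppargc1b, -0.45 for Esrra, -0.66 for Esrrg, -0.53 for Rxra, -0.21 for Nr1h4 and -0.63 for Cebpa. At 28 against 26 min, where Acsm3 and Acsm5 were called, 0 of these 11 were called by limma and 4 had an unadjusted p under 0.05. At 16 to 26 min 0 were called and 3 had an unadjusted p under 0.05.

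Markers of the proximal tubule were also lower after the longer times. Of 10 proximal tubule markers 7 were called lower at 30 min, 4 at 28 against 26 min and 1 at 16 to 26 min, with median differences of -2.47, -0.75 and -0.43. Their summed FPKM lay between 4533.3 and 4992.2 in sham kidneys, 2562.1 and 4988.2 after 26 min, 1443.6 and 1638.4 after 28 min, and 926.9 and 1092.3 after 30 min. The largest decreases at 30 min were in Aqp1 (-3.27, limma, adjusted p = 2.55e-09) and Gatm (-3.16, adjusted p = 2.03e-06), and Miox led at 28 against 26 min (-1.69, adjusted p = 4.5e-04). Slc34a1, the sodium phosphate carrier of the proximal tubule, fell between these times from 1843.9 ± 583.3 to 734.3 ± 58.8 FPKM (SD, n = 3 each, adjusted p = 3.28e-05). Aqp1 was the one called at 16 to 26 min (-1.32, adjusted p = 2.84e-05). None of the 10 was at 0 in any kidney, and their part in the Acsm results was not tested.

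Of 8 markers of the straight proximal tubule 7 were called lower at 30 min, 4 at 28 against 26 min and 3 at 16 to 26 min, with median differences of -3.78, -1.19 and -0.87, and none was at 0 in any kidney. Their summed FPKM lay between 989.6 and 1264.6 in sham kidneys, 454.2 and 529.8 after 26 min, 246.1 and 260.1 after 28 min, and 165.5 and 191 after 30 min. Slc7a13, an aspartate and glutamate carrier of the S3 segment, was called lower at 28 against 26 min (difference -2.66, limma, adjusted p = 1.16e-04), at 30 min (-5.74, adjusted p = 3.92e-10) and at 16 to 26 min (-1.28, adjusted p = 0.00177). In the single kidneys it read 42.16, 51.46 and 60.15 FPKM at 26 min and 7.53, 5.85 and 8.73 at 28 min, and its profile was the 11th closest to Acsm3, at 0.394. Slc22a13 fell by 1.84 at 28 against 26 min (adjusted p = 4.85e-04). Slc5a1, of the same list, was above sham at the shorter times, with differences of 0.28 at 16 min and 0.43 at 26 min, neither of them called. Cyp7b1 (-3.48, adjusted p = 8.41e-07) and Slc22a7 (-2.03, adjusted p = 5.12e-06) led at 16 to 26 min, and Cyp7b1 had a difference of -5.54 at 30 min (adjusted p = 8.01e-09). The part of these changes in the Acsm3 result was not tested.

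Other cell types were read by the same means. Of 6 loop and distal tubule markers, 4 were called lower at 30 min, 3 at 28 against 26 min and 2 at 16 to 26 min, and their summed FPKM ran from 1905.7 to 2137.1 in sham kidneys, from 655.6 to 937.4 after 28 min and from 635.9 to 2403 after 30 min. Pvalb led them at 30 min (-4.11, limma, adjusted p = 1.66e-06), at 28 against 26 min (-2.32, adjusted p = 0.00438) and at 16 to 26 min (-1.38, adjusted p = 0.0099). Slc12a1 (-2.43 at 30 min, adjusted p = 7.87e-04) and Calb1 (-2.05 at 28 against 26 min, adjusted p = 0.00195) came next. Umod, the next gene but one to Acsm5 on chromosome 7, was called lower at 30 min (difference -1.05, adjusted p = 0.0237). Its 30 min kidneys read 462.94, 454.38 and 2033.56 FPKM, and its sham kidneys 1246.83, 1404.76 and 1254.98. The 30 min kidney of replicate 3 thus lay above every sham kidney, against the direction of the call. Of 8 collecting duct markers 2 were called lower at 30 min, Slc4a1 (-2.51, adjusted p = 9.88e-06) and Avpr2 (-1.39, adjusted p = 0.00208), and Slc4a1 alone at 28 against 26 min (-1.41, adjusted p = 0.0114), where 0 were called without replicate 3 of 28 min and 2 without replicate 3 of 26 min or replicate 1 of 28 min. Aqp2 differed by 0.15 at 30 min (adjusted p = 0.827), with kidneys at 166.06, 171.96 and 468.05 FPKM, the last again of replicate 3.

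Of 9 glomerulus and vessel markers Acta2, a smooth muscle and myofibroblast actin, was the one called at 30 min and at 16 to 26 min. It was higher at 30 min, with 9.637 ± 1.666 FPKM in sham and 98.16 ± 68.97 at 30 min (SD, n = 3 each, limma, adjusted p = 1.18e-06), and at 16 to 26 min (difference 1.66, adjusted p = 1.36e-04, where 1.80% of all genes were called higher). Without replicate 1 of 30 min 3 of the 9 were called at 30 min, and 2 without replicate 2 of 30 min. Pdgfrb, a pericyte receptor, was called higher at 24 min alone (difference 1.05, adjusted p = 6.32e-04). Its differences of 0.42, 0.99, 0.76, 0.65 and 0.90 at 16, 18, 20, 22 and 26 min were also above 0 but below the size of a call.

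Of 9 leukocyte markers S100a9, S100a8 and Itgam were called higher at 30 min, by 1.39, 1.35 and 1.34 (adjusted p = 0.00119, 0.00447 and 1.06e-04), and Csf1r lower (difference -1.23, adjusted p = 1.1e-05). At 28 against 26 min S100a8 and S100a9 were called higher, by 1.29 and 1.05 (adjusted p = 0.0198 and 0.029, with 0.440% of all genes called higher). Neither was called without replicate 2 of 26 min or replicate 1 of 28 min, and 1 was called without replicate 1 of 26 min or replicate 2 or 3 of 28 min. The 9 leukocyte markers together summed to between 23.12 and 25.61 FPKM in sham and between 28.49 and 31.57 at 30 min. Of 9 markers of adrenal, liver, fat and muscle, 7 were tested, and Ttr, the transthyretin gene, was called in both directions. It read 75.14 ± 6.615 FPKM in sham, 212.9 ± 117 after 16 min, 100.7 ± 35.57 after 26 min and 33.26 ± 4.609 after 28 min (SD, n = 3 each). Against sham it was called higher by limma after 16, 18, 20 and 22 min (differences 1.32, 1.23, 1.09 and 1.19, adjusted p = 0.00849, 0.00842, 0.0216 and 0.0099), although not at 16 min without replicate 3 (0.86), and lower after 28 min (-1.26, adjusted p = 0.00341). Between 26 and 28 min its difference was -1.55 (adjusted p = 0.00263). Cyp11b1 and Myh4 were listed at 0 in 25 of 27 kidneys, and Adipoq, a fat marker, reached 24.48 FPKM in 1 kidney of 18 min. Mean Adipoq was 8.297 FPKM at 18 min, 3.053 at 20 min and 6.497 at 22 min, against 0.08333 in sham and 0.03333 at 24 min. All 4 injury markers were called higher at 30 min, and their summed FPKM ran from 12.42 to 86.91 in sham kidneys, from 68.91 to 1004.5 after 16 min, from 2134.1 to 2256 after 28 min and from 2508.4 to 4910.7 after 30 min. Krt20 was the 1 of 4 called at 28 against 26 min (difference 2.30, adjusted p = 0.00586). None of the 4 Y-linked genes measured was called in these comparisons.

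The neighbours of the Acsm genes on chromosome 7 had levels of their own. Thumpd1, 526 bases after Acsm4, read 10.51 FPKM in sham and 15.7 at 30 min on average, and Ppp1ccb, between Thumpd1 and Acsm3, read 25.69 and 47.48. Eri2, which overlaps the end of Acsm3, read 4.52 in sham, 3.557 at 28 min and 2.713 at 30 min, and Pdilt, which overlaps the beginning of Acsm5, read 2.063, 2.33 and 2.673. Of the protein-coding genes that lie within the row or overlap it, none had a mean at 30 min as low in proportion to sham as Acsm1, Acsm2, Acsm3 or Acsm5 had. Outside the row, Lyrm1 read 11.05 in sham and 4.467 at 30 min, and Dnah3, near 0, read 0.2367 and 0.02333. Gp2, Umod, Rexo5 and Dcun1d3 kept larger shares of their sham means than these.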

How the data were processed

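Total RNA of 27 left kidneys was sequenced on a DNBSEQ-G400. The submitters' processing notes name Bowtie2, RSEM, DESeq2 and the build GRCm38.p6, with no versions, and the strand setting of the counting is not given in the sources used here. The authors deposited 1 table of FPKM values on a linear scale, rounded to 2 decimals. It holds no counts, so a count test was not used and depth is known only relative to other kidneys.

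Groups were taken from the labels. Genes above 0 FPKM in at least 3 kidneys (18188 of 19392) were quantile normalized as log2(FPKM + 1). All 27 kidneys were fitted together in limma 3.58.1 under R 4.3.3, and each ischemia time had its own mean. Fold changes on this scale understate those of low genes. P-values were moderated by empirical Bayes and adjusted over all tested genes by Benjamini and Hochberg. A call needed a difference above 1 in size and an adjusted p under 0.05. P-values rest on the spread between mice within groups, with n = 3 at each ischemia time. For each gene this spread was pooled over all 27 kidneys and was not taken from the compared groups alone.

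The 16 gene lists, the members among them, were chosen with earlier results of these data known. The text names the 4 members, all genes of the lists of other acyl-CoA synthetases, glycine conjugation and regulators (some regulators are not reported here), fixed marker genes, the 5 genes most like each member in profile, and of each other list the 2 called genes with the largest increase and decrease per comparison. Neighbours on chromosome 7, Adipoq, Itgam, Pdgfrb, Slc5a1, and the uncalled thioesterase, CoA and beta-oxidation genes were named after their values were seen. Profiles were compared over genes averaging at least 1 FPKM.

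Alternatives were a pseudocount of 0.1, no quantile normalization, a constant sum, a filter of 1 FPKM, no filter, a fit of only the groups compared, a trended prior, the replicate number as a block, and leaving out each kidney. Sequences are from RefSeq, read with Biopython 1.88, and figures were drawn with matplotlib 3.10.9 in Python 3.11.15. No 2 columns were identical.

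The values gave no sign that equal replicate numbers of different groups marked paired mice, which does not exclude pairing. Deviations from the group means correlated by -0.030, 0.024 and -0.002 (medians) between kidneys numbered 1, 2 and 3, and by -0.010 between kidneys with different numbers.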

Additional observations from a re-analysis of the deposited data

How the results depend on the processing

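The differences of the 4 Acsm genes kept their sign and their call in most settings, and none with a call changed sign. Over 16 to 26 min against sham, 0 members were called without quantile normalization and 0 with FPKM rescaled to a constant sum, against 1 in the main result, because Acsm2 then had a difference of -0.92. With a pseudocount of 0.1 more genes were called. Against sham these were 795 genes at 16 min (410 in the main result), 3276 at 30 min (1950) and 1098 over 16 to 26 min (539). The comparison of 28 with 26 min called 515 genes (272), and that of 30 with 28 min 425 genes (191). When limma saw just the kidneys of the compared times, it called 8 genes at 16 min against sham. It called 0 genes between 28 and 30 min, where 4209 had an unadjusted p under 0.05. The other counts moved less, with 242 genes for 28 against 26 min (272), 1848 at 30 min against sham (1950) and 539 over 16 to 26 min (539).

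Leaving out 1 kidney at a time gave 287 to 622 called genes for 16 against 0 min, the highest without replicate 3 of 16 min, and 0 to 2 members. The difference of Acsm2 there ran from -1.12 to -0.65. For 26 against 16 min it gave 0 to 24 called genes, the highest without replicate 2 of 16 min, and differences of Acsm2 from -0.71 to -0.25. For 28 against 26 min it gave 1 to 2 members, and 1 without replicate 2 of 26 min or replicate 3 of 28 min. For 30 against 28 min 83 to 339 genes were called, with 83 without replicate 3 of 30 min, 126 without replicate 2 of 28 min and 339 without replicate 1 of 30 min. For 30 against 0 min all 4 members stayed called in each of these fits. The causes were not tested.

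With the replicate block, 410 genes were called at 16 min and 1950 at 30 min against sham, and 271 between 26 and 28 min. The members called were 0, 4 and 2, the same counts as without it.

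Of the 5 genes most like each member, a pseudocount of 0.1 kept 4 for Acsm1, 4 for Acsm2, 3 for Acsm3 and 3 for Acsm5, and centred values of the 27 kidneys kept 3, 2, 2 and 3. Because the values hold no counts, counting error per kidney is unknown, and low genes such as Acsm4, Glyatl3 and Gm4952 are the least certain.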
